A study of Mus musculus with 6 samples.

Results

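The cytosolic nucleic acid sensing pathway was described through 9 genes of the 55401 in the count table, found by matching gene identifiers to GENCODE M21 symbols. They are the RNA sensors Ddx58 (RIG-I) and Ifih1 (MDA5), the adaptors Mavs and Tmem173 (STING), the kinases Tbk1 and Ikbke, their scaffold Tank, and the sensors Zbp1 and Aim2. Each matched a single protein-coding row, and all 9 passed the low-count filter in every alternative setting. The samples were 6 RNA sequencing libraries of RAW264.7 cells, a wild-type mouse macrophage-like line. In 3 libraries the cells had received phosphate-buffered saline (PBS), and in the other 3 molybdenum disulfide (MoS2), a layered metal sulfide, at 6.25 µg/ml. A single cell line was used, no duration of treatment is given in the sources used here, and the labels do not say whether replicates were separate cultures. The p-values therefore reflect the spread among these libraries alone, and that spread may be technical.

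Cells detect viral or misplaced nucleic acid in the cytosol with dedicated receptors. RIG-I and MDA5 bind double-stranded RNA and signal through MAVS on the outer mitochondrial membrane, while the enzyme cGAS binds DNA and makes a cyclic dinucleotide that activates STING in the endoplasmic reticulum. Both adaptors recruit TBK1 and the related kinase IKK-epsilon, which phosphorylate the transcription factors IRF3 and IRF7 and so switch on type I interferon genes. ZBP1 binds Z-form nucleic acid and acts through the kinase RIPK3 and the pore-forming MLKL, and AIM2 binds DNA and builds an inflammasome through the adaptor ASC. Macrophages express many of these proteins, and several of the genes are themselves induced by interferon.

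Total counts ran from 15767618 to 18412762 per library. All 10 macrophage markers examined passed the low-count filter, with summed levels of 9096 to 9190 CPM (read counts scaled to library size with TMM factors, a scaling that discounts a few very abundant genes) in PBS and 5475 to 5710 CPM in MoS2. Of the B cell, fibroblast and epithelial markers 0 passed the filter, and of the 7 T cell markers 1 passed, with summed levels of 5.39 to 6.63 CPM in PBS and 9.18 to 11.7 CPM in MoS2, and Cd3d, Cd8a and Trac at 0 in all libraries. The part of these marker differences in the results was not tested. The 10 most abundant genes of the MoS2 libraries took 18.9% to 19.6% of MoS2 counts and 4.0% to 4.43% of PBS counts. The TMM factors were 1.31 in PBS and 0.743 to 0.783 in MoS2. The part of those 10 genes in this gap was not tested. Against TMM, scaling by library totals alone lowered log2 fold changes (MoS2 over PBS) by a median of 0.77, so each direction below is given with the scalings under which it flips. In bulk RNA, fewer cells that express a gene and less of its RNA per cell cannot be told apart.

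Zbp1, Aim2, Ddx58, Tank, Ifih1 and Tbk1 were higher in MoS2 than in PBS with TMM scaling, and Tmem173, Ikbke and Mavs were lower. With library totals Zbp1 alone stayed higher, Aim2 had about the same level in both groups, and the other 7 were lower. That scaling called 18% of all tested genes higher and 67.7% lower. Among the members, Zbp1 had the largest rise, by 7.80 times, and Tmem173 the largest fall, to 0.347 of its PBS level. The edgeR quasi-likelihood test called all 9 at an adjusted p under 0.05, 6 higher and 3 lower. This test called 80.7% of all 12972 tested genes, 38.3% higher and 42.4% lower, so the number of members called is close to the background. The 3 MoS2 values did not overlap the 3 PBS values for any member, against 81.9% of all tested genes. The median log2 fold change of all tested genes was -0.08 with TMM and -0.85 with library totals.

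**Figure D1:**
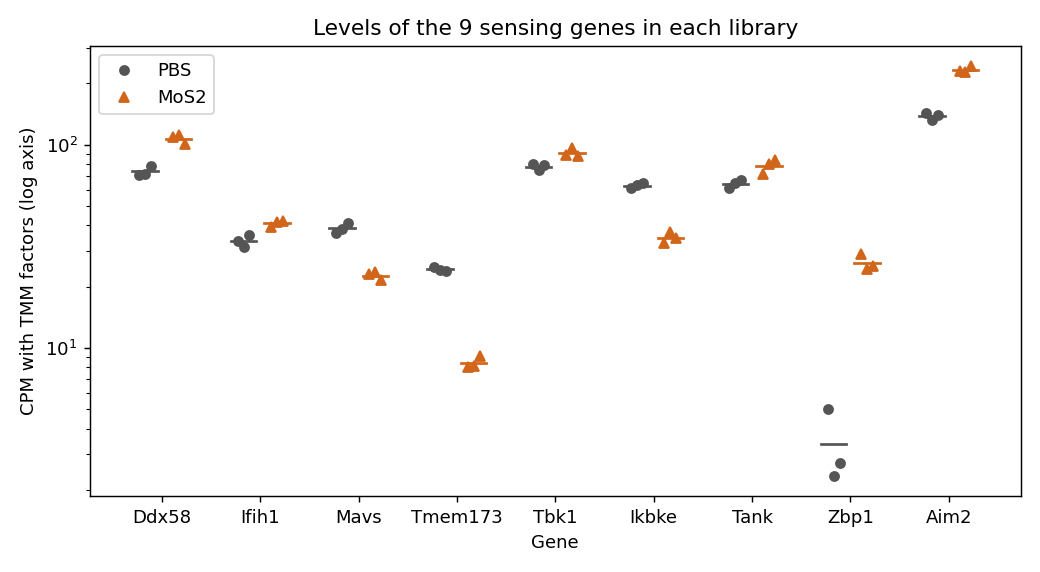
Level of each of the 9 genes in each library, in CPM with TMM factors on a log axis, with circles for PBS, triangles for MoS2 and a line at each mean of 3 libraries. The 2 groups do not overlap for any gene, and Zbp1 and Tmem173 have the widest separation.

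The RNA sensors are described first, with the stretches of their promoters that hold an interferon-stimulated response element. Within each scaling their log2 fold changes had the same sign as each other, positive with TMM and negative with library totals. Promoter windows of RefSeq on GRCm38.p6, 250 bases before to 50 bases after a start, were matched for 7 of the 9 genes (10 windows), and Tmem173 and Zbp1 were not searched. The element was searched as GAAANNGAAA on both strands and occurred in 3.44% of all 32851 windows. Ddx58 and Ifih1 held it, each just inside the transcribed part, from base 3 to 12 after the start in Ddx58, on the strand opposite to the gene, and from base 33 to 42 in Ifih1. Capitals mark the match in these stretches of 30 bases, read on the gene's strand (minus for both), from chr4:40239804-40239833 and chr2:62646206-62646235.
Ddx58: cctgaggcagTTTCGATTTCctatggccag
Ifih1: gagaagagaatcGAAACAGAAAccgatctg
A match of letters is a description and does not show that a factor bound there.

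Ddx58 (ENSMUSG00000040296.15, GRCm38 chromosome 4, 40203773 to 40239828) encodes RIG-I, the helicase that recognises RNA ends with a triphosphate. Its level was 71.2, 71.6 and 78.4 CPM in the PBS libraries and 109, 111 and 100.4 CPM in the MoS2 libraries. All MoS2 values lay above all PBS values. The log2 fold change was 0.54 ± 0.07 (SE, edgeR adjusted p = 7.50e-06), but with library totals it was -0.23 and still called (edgeR adjusted p = 0.0117). After removal of each library's trends on length and GC content it was 0.78 (edgeR adjusted p = 4.71e-09). Its raw counts were 1641 to 1745 in PBS and 1370 to 1373 in MoS2.

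Ifih1 (ENSMUSG00000026896.14, GRCm38 chromosome 2, 62595798 to 62646255) encodes MDA5, the sensor of long double-stranded RNA. It had 33.6, 31.4 and 36.0 CPM in PBS and 39.2, 41.5 and 42.3 CPM in MoS2, a small separation with no overlap. Its log2 fold change of 0.29 ± 0.08 (edgeR adjusted p = 0.00550) became -0.49 with library totals. It was 0.16 and no longer called with upper-quartile factors (edgeR adjusted p = 0.0932), and likewise lost its call without the filter on low counts (0.20, edgeR adjusted p = 0.0647). With the length and GC trends removed it was 0.54 (edgeR adjusted p = 8.42e-06).

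A ratio of counts between a pair of genes within a library does not depend on a scaling factor of that library. Trends on length or GC content, which act on genes unequally, do not cancel in it. Ifih1 had 0.472, 0.438 and 0.459 counts per count of Ddx58 in PBS and 0.358, 0.373 and 0.421 in MoS2. The ratio was lower in each MoS2 library than in each PBS library, to 0.840 of its PBS value, a log2 difference of -0.25. An exact two-sided permutation test of 3 against 3 libraries gave p = 0.1, the smallest it can give, with an adjusted p = 0.125 over the 5 pairs compared.

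The adaptors had lower levels in MoS2 under each scaling. Tmem173 (ENSMUSG00000024349.10, GRCm38 chromosome 18, 35733679 to 35740554), the gene of STING, had 25.0, 24.1 and 24.0 CPM in PBS and 8.07, 8.11 and 9.14 CPM in MoS2. The replicates were close together in both groups, and the groups were far apart. Its log2 fold change was -1.53 ± 0.11 (edgeR adjusted p = 1.27e-08), and it ranged over the scalings from -1.48 with RLE factors to -2.30 with library totals. Of all tested genes 25.0% had a larger absolute log2 fold change.

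Mavs (ENSMUSG00000037523.13, GRCm38 chromosome 2, 131234063 to 131248025), the mitochondrial adaptor of both RNA sensors, had 36.8, 38.3 and 41.2 CPM in PBS and 23.0, 23.5 and 21.4 CPM in MoS2. All MoS2 values were below all PBS values. The log2 fold change was -0.78 ± 0.09 (edgeR adjusted p = 1.46e-06), and -1.55 with library totals. Between the adaptors, Tmem173 had 0.680, 0.628 and 0.581 counts per count of Mavs in PBS and 0.351, 0.345 and 0.427 in MoS2. The ratio did not overlap between the groups and changed by -0.75 on the log2 scale (exact permutation p = 0.1, adjusted p = 0.125), so Tmem173 fell by more than Mavs in these libraries.

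The kinases that both adaptors recruit differed in direction with TMM scaling. Tbk1 (ENSMUSG00000020115.3, GRCm38 chromosome 10, 121546455 to 121586787) had 79.9, 74.5 and 79.0 CPM in PBS and 88.6, 95.6 and 87.9 CPM in MoS2. With TMM this was the smallest change among the 9 genes, and 85.7% of all tested genes changed by more, but with library totals Aim2, Ddx58, Tank and Ifih1 changed by less. The log2 fold change was 0.22 ± 0.07 (edgeR adjusted p = 0.00770), or -0.55 with library totals, and 0.09 with no call with upper-quartile factors (edgeR adjusted p = 0.230). The call was also lost without PBS replicate 2 (log2 fold change 0.18, edgeR adjusted p = 0.0567) and without the filter on low counts (0.14, edgeR adjusted p = 0.143). With the length and GC trends removed the log2 fold change was 0.37 (edgeR adjusted p = 6.15e-05).

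Ikbke (ENSMUSG00000042349.13, GRCm38 chromosome 1, 131254343 to 131279606), which encodes IKK-epsilon, the inducible relative of TBK1, had 60.8, 63.1 and 64.4 CPM in PBS and 32.9, 37.0 and 34.5 CPM in MoS2. The MoS2 values lay well below the PBS values. The log2 fold change was -0.85 ± 0.08 (edgeR adjusted p = 1.33e-07), with -1.62 under library totals and -0.45 after removal of the trends on length and GC content that each library shows. The genes Gm28914 and Gm28913, antisense to Ikbke, share 159 and 65 exon bases with it and had at most 19 counts in any library, against at least 412 for Ikbke. The sources used here do not say whether the counting used strand, so reads of the shared bases cannot be told apart.

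The ratio of Ikbke to Tbk1 counts was 0.762, 0.847 and 0.815 in PBS and 0.372, 0.386 and 0.393 in MoS2. The groups did not overlap, and the ratio in MoS2 was 0.475 of that in PBS. The log2 difference was -1.07 (exact permutation p = 0.1, adjusted p = 0.125), which no single factor per library alters. With the length and GC trends removed, the log2 fold changes were -0.45 for Ikbke and 0.37 for Tbk1, a smaller gap.

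Tank (ENSMUSG00000064289.15, GRCm38 chromosome 2, 61578585 to 61654171), a scaffold that binds both kinases and TRAF proteins, had 61.4, 64.4 and 66.7 CPM in PBS and 71.9, 80.2 and 83.8 CPM in MoS2. The groups did not overlap, but the MoS2 values were spread more widely. Its log2 fold change of 0.29 ± 0.07 (edgeR adjusted p = 0.00248) became -0.48 with library totals and 0.16 with no call with upper-quartile factors (edgeR adjusted p = 0.0556). With the length and GC trends removed it was 0.62 (edgeR adjusted p = 2.83e-07). Tank had 0.769, 0.864 and 0.844 counts per count of Tbk1 in PBS and 0.812, 0.838 and 0.953 in MoS2. These ratios overlapped, with a log2 difference of 0.07 (exact permutation p = 0.6, adjusted p = 0.6). No difference between Tank and Tbk1 was thus detectable in the count ratios with 3 libraries a group. With the length and GC trends removed, Tbk1 had a log2 fold change of 0.37 beside the 0.62 of Tank, and that gap was not tested. Among the windows of the 7 matched genes the kappaB motif, the binding sequence of NF-kB, present in 8.46% of all windows on either strand, occurred in those of Tank alone. The stretches that hold it are shown for that reason, on the plus strand, from chr2:61593015-61593044, with the motif 72 to 63 bases before a start, and chr2:61578537-61578566, with the motif 10 to 1 bases before another start on the strand opposite to the gene.
Tank, first stretch: ctttgtgggcGGGGCTTTCCtgcagaggcg
Tank, second stretch: atttctcagtGGAAGTCCCCagttcaacac
The gamma-activated site, searched as TTCNNNGAA, was in 8.30% of all windows and in 0 of the 10 windows of these genes, which says only that these letters are not in those windows.

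**Figure D2:**
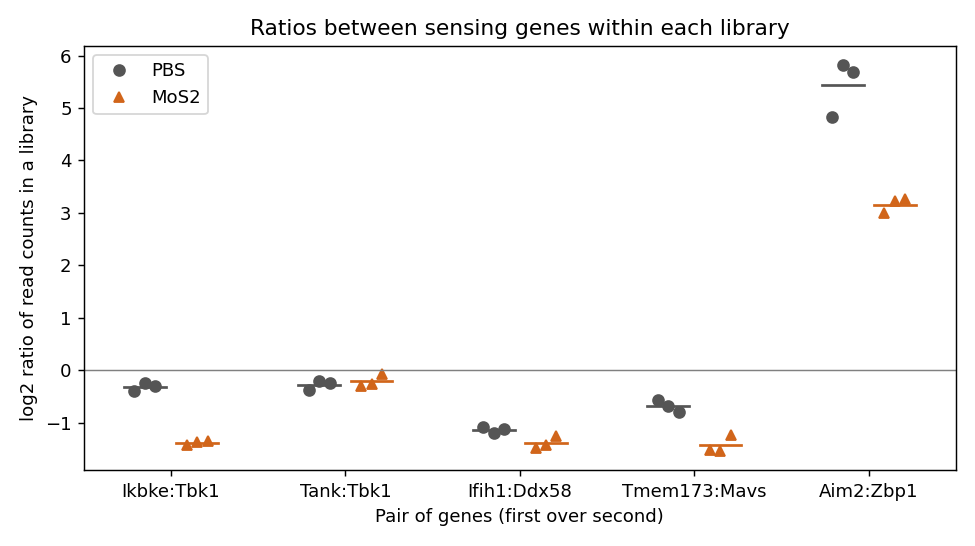
Ratio of read counts between 5 pairs of the genes within each library, on a log2 scale, with circles for PBS, triangles for MoS2 and a line at each mean. The ratios overlap between groups for Tank to Tbk1 and are lower in MoS2 for the other 4 pairs.

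Zbp1 (ENSMUSG00000027514.14, GRCm38 chromosome 2, 173206612 to 173218923) encodes the sensor of Z-form nucleic acid that can start necroptosis. It had 4.99, 2.35 and 2.70 CPM in PBS, from 115, 54 and 60 counts, and 28.9, 24.3 and 25.3 CPM in MoS2, from 362, 300 and 346 counts. PBS replicate 1 was the highest of its group, and each MoS2 library was far above it. The log2 fold change was 2.96 ± 0.21 (edgeR adjusted p = 1.07e-08), it remained 2.19 with library totals, and 6.19% of all tested genes had a larger absolute change. Without PBS replicate 1 it was 3.37, and without PBS replicate 2 it was 2.75.

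Aim2 (ENSMUSG00000037860.15, GRCm38 chromosome 1, 173350879 to 173466040), the DNA sensor of the AIM2 inflammasome, was the most abundant member in each library. It had 142, 132 and 139 CPM in PBS and 230, 227 and 242 CPM in MoS2. The log2 fold change was 0.76 ± 0.06 (edgeR adjusted p = 5.65e-08). With library totals it was -0.02 and not called (edgeR adjusted p = 0.804), and the levels scaled in that way overlapped, at 172 to 185 CPM in PBS and 176 to 179.9 CPM in MoS2. The counts of Aim2 per count of Zbp1 were 28.5, 56.3 and 51.6 in PBS and 7.94, 9.33 and 9.58 in MoS2. That ratio was lower in each MoS2 library, by 2.28 on the log2 scale (exact permutation p = 0.1, adjusted p = 0.125), the largest shift of the 5 pairs.

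**Figure D3:**
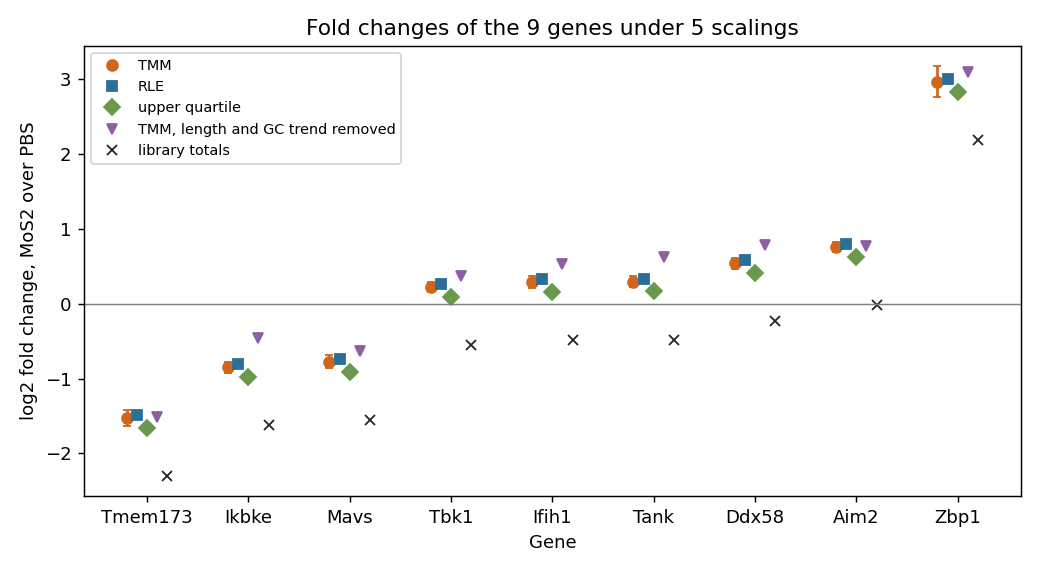
Log2 fold change of MoS2 over PBS for each gene under 5 scalings, with the standard error drawn on the TMM value. Crosses for library totals lie lower throughout, so that 5 genes with a positive TMM value fall below 0, while Zbp1 stays above 0 and Tmem173, Ikbke and Mavs stay below it.

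To set different genes side by side, levels were also scaled by length, as RPKM (CPM per kilobase of exon) with the summed exon length of the deposited table. In PBS the order was Aim2 at 39.4 ± 1.49 RPKM (SD, n = 3), Tbk1 at 19.9 ± 0.735, Mavs at 11.6 ± 0.675, Tank at 10.5 ± 0.435, Ddx58 at 10.5 ± 0.576, Tmem173 at 8.88 ± 0.214, Ikbke at 6.96 ± 0.202, Ifih1 at 4.12 ± 0.281 and Zbp1 at 0.947 ± 0.406. Tank and Ddx58 were the only neighbours whose values overlapped. In MoS2, Aim2 at 66.5 ± 2.34 and Tbk1 at 23.2 ± 1.10 RPKM again led, followed by Ddx58 at 15.2 ± 0.829, Tank at 12.9 ± 0.999, Zbp1 at 7.42 ± 0.685, Mavs at 6.77 ± 0.323, Ifih1 at 5.02 ± 0.195, Ikbke at 3.86 ± 0.226 and Tmem173 at 3.08 ± 0.223. Zbp1 and Mavs were the only neighbours that overlapped there. Zbp1 thus went from rank 9 to rank 5, and Tmem173 from rank 6 to rank 9. Among all tested genes, the level per length of Tmem173 stood at percentile 64.3 in PBS and 40.6 in MoS2, and that of Zbp1 at 17.9 and 60.4.

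**Figure D4:**
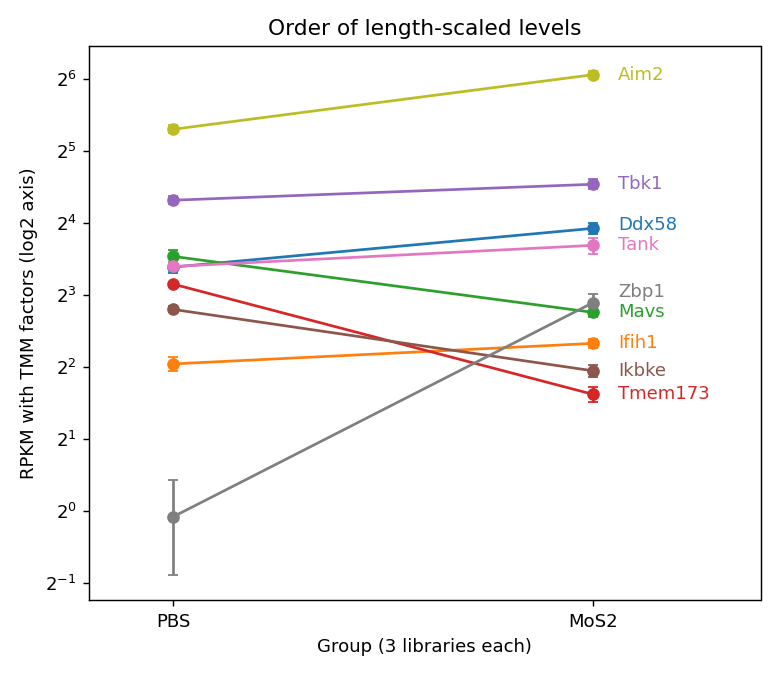
Mean RPKM with TMM factors in each group on a log2 axis, with bars for the SD of 3 libraries. Aim2 and Tbk1 lead in both groups, and Tmem173 drops to the lowest place. The mean of Zbp1 climbs past that of Mavs, but their values overlap in MoS2.

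The fixed lists of other genes around the sensors held 139 genes, of which 121 were tested, with 51 called higher and 46 lower, shares close to the 38.3% and 42.4% of all tested genes. The split was 21 and 87 with library totals and 71 and 36 with the trends on length and GC content removed. Of all 12972 tested genes, 2334 were higher and 8786 lower with library totals, and 5670 and 4736 without the trends. For each list below, the splits with library totals and without the trends follow the TMM split in that order. The median log2 fold change of the list genes with TMM was 0.01, beside -0.08 for all tested genes. Among DNA sensors upstream of STING, 7 of 14 tested genes rose and 6 fell (2 and 10, then 9 and 5). Cgas, the synthase of the dinucleotide that binds STING, fell from 44.6 ± 2.57 to 26.9 ± 0.990 CPM (SD, n = 3). The helicase gene Dhx9 had a log2 fold change of -1.35, and the DNA repair genes Mre11a and Rad50, whose proteins form a single complex, had 0.99 and -0.84. Ifi204, an interferon-inducible DNA-binding protein, had a log2 fold change of 1.55.

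Of the genes for transport and hydrolysis of cyclic dinucleotides, 1 of 8 tested rose and 7 fell (0 and 7, then 1 and 6), and the median was -1.49, beside 42.4% of all tested genes lower with TMM and 67.7% with library totals. Lrrc8b, Lrrc8c and Lrrc8d, subunits of volume-regulated anion channels, fell from 63.0 to 14.8, from 43.7 to 15.1 and from 152 to 66.6 CPM, and the transporter gene Slc46a3 had a log2 fold change of -2.31. The hydrolase gene Enpp1 had 3 counts in PBS and 4 in MoS2 and was not tested. The list of STING trafficking and modification had 5 genes higher and 6 lower of 16 (2 and 14, then 9 and 6). Insig1, an endoplasmic reticulum anchor protein, and Ap1s1, a clathrin adaptor subunit, had log2 fold changes of 1.04 and 1.18. The palmitoyltransferase gene Zdhhc7 and the deubiquitinase gene Usp20 had -1.11 and -0.90.

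Cofactors and regulators of the RIG-I-like receptors had 9 of 17 genes higher and 5 lower (3 and 12, then 11 and 3). Dhx58, the third receptor of the family, which lacks signalling domains, had 33.7 ± 1.98 CPM in PBS and 46.3 ± 1.41 CPM in MoS2, with 0.46 as its log2 fold change (edgeR adjusted p = 9.65e-05), which became -0.31 with library totals. Oasl1, an interferon-induced protein, had 1.99, the deubiquitinase gene Usp15 1.01, the phosphatase gene Ppp1ca 1.03 and the helicase gene Ddx3x -1.22. The regulators of MAVS at mitochondria had 7 higher and 4 lower of 14 (4 and 7, then 10 and 3). Nlrx1, a mitochondrial NOD-like receptor, fell from 26.0 ± 2.1 to 4.28 ± 0.676 CPM. Pcbp2, which promotes MAVS degradation, had a log2 fold change of 1.21. The mitochondrial matrix protein gene C1qbp and the outer membrane channel gene Vdac1 had 1.2 and 1.27.

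The complex of the kinases and its targets had 7 of 20 genes higher and 7 lower (2 and 17, then 12 and 4). The transcription factors that the kinases phosphorylate went in opposite directions under each scaling. Irf3 fell from 35.0 ± 0.907 to 13.6 ± 2.51 CPM (log2 fold change -1.36, edgeR adjusted p = 8.55e-08), and Irf7 rose from 111 ± 5.19 to 453 ± 18.5 CPM (2.03, edgeR adjusted p = 6.18e-12). Sike1, a suppressor of IKK-epsilon, had -0.84, and the chaperone gene Hsp90aa1 1.05. The ubiquitin ligase gene Traf3 had -0.11 and was not called (edgeR adjusted p = 0.356), but was called at -0.88 with library totals, at -0.24 with upper-quartile factors and also without PBS replicate 1, and at 0.29 without the trends on length and GC content. Genes of nucleic acid clearance and editing had 5 higher and 6 lower of 13 (3 and 9, then 7 and 6). The exonuclease gene Pld3, the mitochondrial nuclease gene Pnpt1 and the DNA-bridging Banf1 had log2 fold changes of 1.80, 1.61 and 1.47. The DNA exonuclease gene Trex1 is listed at 0 in all libraries. Its exons share 1147 bases with Atrip on the same strand, which had 220 to 425 counts per library.

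Among partners of ZBP1 and AIM2, 8 of 12 tested genes rose and 2 fell (5 and 4, then 8 and 2), and the median was 0.74, beside 38.3% of all tested genes higher and 42.4% lower with TMM. Mlkl, the executor of necroptosis, had 9.25 ± 1.36 CPM in PBS and 54.1 ± 5.23 CPM in MoS2. Ripk3, the kinase that ZBP1 binds, had a log2 fold change of 0.76 with TMM but -0.01 with library totals (edgeR adjusted p = 0.889). The kinase gene Ripk1 and the death adaptor gene Fadd had -1.99 and -3.13, and Cflar, an inhibitor of caspase-8, had 1.23. Pycard, the gene of ASC, had 9 counts in all PBS libraries and 2 in all MoS2 libraries and was not tested, with a ratio of 0.394 and a 95% exact counting interval of 0.0414 to 1.90 (counting error only). RAW264.7 cells are known to lack ASC. In the list of type I interferons and their receptor, 2 of 7 tested genes rose and 3 fell (0 and 7, then 4 and 1). Ifnb1, interferon beta, did not pass the filter, with 1 count in PBS, in PBS replicate 2, and 40 in MoS2. With TMM sizes that is a ratio of 70.9, with a 95% exact counting interval of 12 to 2871 (counting error only). The interval leaves out the spread among the MoS2 libraries, which had 8, 12 and 20 counts. With library totals the ratio is 41.5, and without PBS replicate 2 there is no ratio. The kinase genes Jak1 and Tyk2 had log2 fold changes of 0.42 and -0.89, with Jak1 at -0.35 under library totals, and the receptor chain gene Ifnar1 and Stat2 had -0.34 and -0.47. The calls of Ifnar1 and Stat2 were lost once the length and GC trends had been removed (-0.05 and -0.15, edgeR adjusted p = 0.556 and 0.123).

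**Figure D5:**
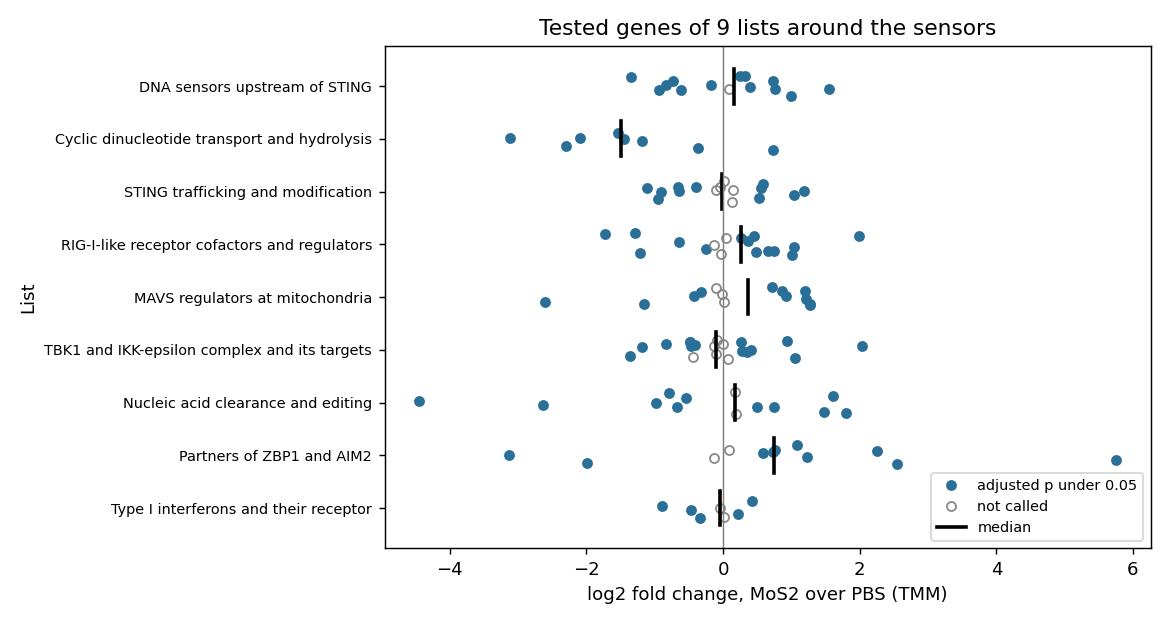
Log2 fold change with TMM scaling of each tested gene of the 9 lists, filled where called at an adjusted p under 0.05, with a line at each list's median. The medians run from -1.49 for cyclic dinucleotide transport and hydrolysis to 0.74 for the partners of ZBP1 and AIM2.

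For each member, the genes most like it were those at the smallest Euclidean distance over the 6 libraries between log2 CPM values centred on the PBS mean. With 2 groups, this mainly ranks genes by the size of their change. Candidates needed a symbol and a mean of at least 5 CPM. The nearest genes were Srebf1 and Cbfb to Tmem173 (distances of 0.09 and 0.10), Nf2 and Mboat7 to Mavs (0.07 and 0.07), Fbxo3 and Gigyf1 to Ikbke (0.06 and 0.06), and March7 and Ccrl2 to Ddx58 (0.04 and 0.07). For Aim2 they were Oxct1 and Psat1 (0.06 and 0.07), for Tbk1 Gosr2 and Srpk1 (0.03 and 0.08), for Tank Elof1 and Snap23 (0.05 and 0.09), and for Ifih1 Sf3b1 and Pdlim5 (0.07 and 0.09). Zbp1 had no candidate as close, with the nearest, Gm49774, at 0.43. The part in this distance of its own spread in PBS, at 4.99, 2.35 and 2.70 CPM, was not tested.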

How the data were processed

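Read counts per gene, in whole numbers and without normalization, were deposited for 6 libraries, 3 a group. The submitters' processing notes name featureCounts 1.6.1, HISAT2 2.1.0 and fastp 0.20.0. The notes name the build GRCh38, but all identifiers are mouse, and 54349 of 55401 occur in GENCODE M21 (GRCm38) with identical coordinates. The sources used here do not say how multi-mapping reads were counted.

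Counts of all 6 libraries were fitted with edgeR 4.0.16 (R 4.3.3, limma 3.58.1): quasi-likelihood F test, treatment as the only term, TMM factors, the default filter of about 10 counts in 3 libraries (12972 genes kept), a prior count of 0.125 and Benjamini-Hochberg adjustment over all tested genes, called under 0.05. The SE was approximated by dividing the log2 fold change by the root of F. The fit was tested on simulated data in which only a small share of genes changed. That test does not bear on the choice of scaling here. Within-library ratios had 0.5 added to both counts for the test. Length-scaled levels used the table's Length column.

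All 9 members were named, and in each list up to 4 tested genes with the smallest adjusted p and 10 genes fixed by name (Cgas, Dhx58, Irf3, Irf7, Traf3, Trex1, Ifnb1, Ripk3, Mlkl and Pycard). Of the genes these rules give, 2 are not reported here. Members and lists were chosen with earlier results of these data known. Of 139 list entries, 1 matched through an older symbol. Alternatives were RLE and upper-quartile factors, library totals, no filter, limma-voom, DESeq2 1.42.0, a filter of 1 CPM in 3 libraries, a replicate block, a test against a fold of 1.2, removal of each library's trend on length and GC content (mgcv 1.9.3, GC content known for 99.9% of tested genes) and leaving out each library.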

Additional observations from a re-analysis of the deposited data

How the results depend on the processing

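Direction and call of Tmem173, Mavs, Ikbke and Zbp1 were the same in all alternatives run, and the 3 members called lower remained so. Library totals gave 2334 genes higher and 8786 lower of all tested, 1 member higher and 7 lower, and 21 list genes higher and 87 lower. Under that scaling the log2 fold changes of Ddx58, Ifih1, Tbk1, Tank and Aim2 reversed to -0.23, -0.49, -0.55, -0.48 and -0.016, and those of Dhx58, Ripk3 and Jak1 to -0.31, -0.014 and -0.35. Upper-quartile factors left 3 members higher, with Ifih1, Tbk1 and Tank at 0.16, 0.091 and 0.16 and no call. The test against a fold of 1.2 also left 3 members higher. There the log2 fold changes of Ifih1, Tbk1 and Tank, 0.29, 0.22 and 0.29, had adjusted p-values of 0.227, 0.532 and 0.191 by edgeR. Of all 12972 tested genes, upper-quartile factors called 4441 higher and 6080 lower. The test against a fold of 1.2 called 4298 higher and 4854 lower. With no filter, Ifih1 and Tbk1 had 0.20 and 0.14 and no call. Traf3 reversed to 0.29 with the length and GC trend removed. Leaving out each library in turn moved Tbk1 between 0.18 and 0.25. The cause was not tested, except that library totals and upper-quartile factors shift all genes by construction, by medians of -0.77 and -0.13 on the log2 scale. Removing the length and GC trend moved genes unequally, by a median of 0.21.

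With the replicate block, 4848 genes were higher and 5355 lower, with 6 members higher and 3 lower, and no member's call changed. Deviations from group means correlated across genes at -0.03, 0.01 and -0.20 between libraries of the same number. Between libraries of different numbers the correlations ranged from -0.18 to 0.21. These values gave no sign of pairing by number, but such correlations cannot exclude pairing. Zbp1, with 229 counts in all PBS libraries, had the least depth among the members.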
